A study of Mus musculus with 8 samples.

Results

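Insc and Mrvi1 lie on the same stretch of distal mouse chromosome 7, and the probes of both had lower intensities in skin fibroblasts of Nd2-mutant mice than in those of control mice. These genes were examined together with 8 genes that lie near them, Wee1, Swap70, Adm, Ampd3, Eif4g2, Parva, Tead1 and Rras2. Members were found by gene symbol, which gave 10 genes of 18138 and 14 probes of 25697. Insc and Mrvi1 were chosen because they were lower in this same comparison, so their strain differences are described with no test. The other 8 genes were chosen by position, and the question was whether their levels shift together with those of Insc and Mrvi1, as they could if a piece of donor nuclear DNA had stayed in 1 of the strains.

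The strains are conplastic, which means that the mitochondrial genome of a donor strain was brought into mice of the C57BL/6J nuclear background by repeated backcrossing. The Nd2-mutant strain, C57BL/6J-mtALR/LtJ, carries a leucine to methionine change in subunit 2 of NADH dehydrogenase, and the control strain is C57BL/6J-mtAKR/J. Fibroblasts were isolated from the skin of 4 mice of each strain, all 12 months old and without treatment, grown in DMEM with 10% FCS, and the RNA of each mouse was hybridised to 1 array. Nd2-mutant mice 28 and 32 and control mice 16 and 17 were male, and Nd2-mutant mice 34 and 35 and control mice 15 and 37 were female. Each strain is a single line, so that its mitochondrial genome and any nuclear difference between the lines come together and cannot be told apart. The nuclear genotype of these mice was not measured here.

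Insc encodes Inscuteable, an adaptor that links the Par polarity proteins to the machinery that orients the mitotic spindle, and it is best known from asymmetrically dividing cells such as neural and epidermal progenitors. Mrvi1 encodes a protein of the endoplasmic reticulum, also called IRAG, through which cGMP-dependent protein kinase lowers calcium release from the inositol trisphosphate receptor, mainly in smooth muscle and platelets. Genes that are close neighbours are inherited together for many generations of backcrossing, whatever their function.

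In the gene order of RefSeq (GRCm38.p6), the 10 genes span 31 protein-coding genes, counted here from Wee1 as gene 1 to Insc as gene 31. Swap70 is gene 2, Adm 4, Ampd3 5, Mrvi1 8, Eif4g2 10, Parva 16, Tead1 17 and Rras2 24. Insc and Mrvi1 are therefore not adjacent, and 22 protein-coding genes lie between them. Promoter sequences of 250 bases before the transcription start were found in RefSeq for 6 of the 10 genes. Those of Insc and Mrvi1 are shown because the comparison starts from these genes, and Mrvi1 has 2 starts. Capitals mark matches to GGAATG or CATTCC, the core of the site of TEAD factors, and to ACGTG or CACGT, the core of the hypoxia response element. The Insc window is chr7:114745516-114745765 on the plus strand, and the Mrvi1 windows are chr7:110982462-110982711 and chr7:110946188-110946437 on the minus strand, each written 5′ to 3′ along the gene.
Insc: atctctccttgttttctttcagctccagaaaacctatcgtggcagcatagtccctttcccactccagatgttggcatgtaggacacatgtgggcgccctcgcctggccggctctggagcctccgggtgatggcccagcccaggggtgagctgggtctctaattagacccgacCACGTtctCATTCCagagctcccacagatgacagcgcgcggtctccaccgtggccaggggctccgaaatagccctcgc
Mrvi1, first start: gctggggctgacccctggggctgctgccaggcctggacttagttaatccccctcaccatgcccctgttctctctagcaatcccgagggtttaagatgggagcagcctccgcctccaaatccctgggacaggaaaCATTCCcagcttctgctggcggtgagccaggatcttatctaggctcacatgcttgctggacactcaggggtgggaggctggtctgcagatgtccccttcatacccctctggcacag
Mrvi1, second start: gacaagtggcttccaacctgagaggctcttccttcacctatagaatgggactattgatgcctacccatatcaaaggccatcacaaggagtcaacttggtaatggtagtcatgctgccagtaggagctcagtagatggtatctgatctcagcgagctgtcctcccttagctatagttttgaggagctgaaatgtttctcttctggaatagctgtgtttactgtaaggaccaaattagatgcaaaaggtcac

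The Insc promoter held 1 TEAD core and 1 hypoxia response core, the first Mrvi1 promoter held 1 TEAD core, and the second held no match. On either strand, the TEAD core was found in 12.6% of 32851 RefSeq promoters of this length and the hypoxia response core in 16.6%. The Swap70 promoter also held 1 TEAD core, and 1 of the Ampd3 windows held the hypoxia core. GC boxes (GGGCGG or CCGCCC, in 32.7% of promoters) were found in those of Swap70, Adm and Rras2, and CCAAT boxes (CCAAT or ATTGG, in 33.8%) only in those of Ampd3 among the 9 windows. These motifs do not overlap each other in their letters, except that the palindrome CACGTG counts for both strands of the hypoxia core. The matches are a description of the letters and not of bound sites.

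On the arrays, the authors normalized the intensities by quantiles and subtracted the background, and a probe was called detected at a detection p under 0.01. The Nd2-mutant arrays detected 10973 to 11350 probes and the control arrays 10663 to 10837. The lowest intensity of a detected probe lay between 10.5 and 13.6 over the 8 arrays. Control mouse 15 stood apart, since its array correlated with the others at 0.934 on average, while the averages of the rest were 0.963 to 0.974. Of the fibroblast markers 9 of 10 had a probe and all 9 were tested, with a summed intensity from 35180 to 40640 in the Nd2-mutant mice and from 29522 to 43212 in the control mice. Log2 differences are Nd2-mutant minus control after 16 was added to the intensity, which makes differences of dim probes smaller. Probes were tested if detected in all 4 mice of at least 1 strain, which 10414 probes of 8003 genes and 10 probes of 7 of the 10 chromosome 7 genes passed. In the fit by limma across all tested probes, 0 of 10414 (0.0%) had an adjusted p under 0.05 between the strains, and 795 (7.63%) had an unadjusted p under 0.05.

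Insc was dim in all mice and dimmer in Nd2-mutant fibroblasts. Its probe (ILMN_1253062) gave intensities of 15.4, 11.0, 8.22 and 14.01 in Nd2-mutant mice 28, 32, 34 and 35, and of 45.7, 26.3, 27.9 and 34.02 in control mice 15, 16, 17 and 37. All 4 Nd2-mutant values lay below all 4 control values, and the probe was not detected in Nd2-mutant mouse 34, so that it passed the filter through the control mice. The means were 12.2 ± 3.21 (SD, n = 4) and 33.5 ± 8.78 (SD, n = 4), which is a ratio of 2.75 of control over Nd2-mutant intensity. On the log2 scale the difference was -0.80 (standard error 0.16), and without control mouse 15 it was -0.69. The Nd2-mutant values lie at or near the lowest intensity of a detected probe, and with 1 or 50 added before the log2 in place of 16 the difference was -1.39 or -0.42.

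Mrvi1 was detected in all 8 mice and was also dimmer in Nd2-mutant fibroblasts. Its probe (ILMN_2746283) gave 16.1, 35.6, 28.3 and 16.8 in Nd2-mutant mice 28, 32, 34 and 35, and 60.4, 74.3, 54.0 and 85.4 in control mice 15, 16, 17 and 37. Again no Nd2-mutant value reached the lowest control value. The means were 24.2 ± 9.43 (SD, n = 4) and 68.5 ± 14.1 (SD, n = 4), a ratio of 2.83 of control over Nd2-mutant intensity, and the log2 difference was -1.09 (standard error 0.19), or -1.13 without control mouse 15. Among the 10414 tested probes, 222 (2.13%) were lower without overlap between the strains. That share is given for scale only, because Insc and Mrvi1 were selected for being lower.

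Because no Nd2-mutant value reached a control value, the direction within each sex was fixed by the choice of the genes, and only the sizes are given. Insc differed by -0.56 in the males and by -1.04 in the females on the log2 scale, and Mrvi1 by -0.96 and -1.21, with 2 mice in each cell of the comparison. The strain by sex interaction (difference in males minus difference in females) was 0.48 for Insc (95% interval -0.23 to 1.19) and 0.24 for Mrvi1 (95% interval -0.73 to 1.22), each with an adjusted p of 0.9999 from limma. Male and female mice differed by -0.13 for Insc (standard error 0.16, adjusted p = 0.858 from limma) and by -0.03 for Mrvi1 (standard error 0.20, adjusted p = 0.976 from limma), with strain as a term.

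**Figure D1:**
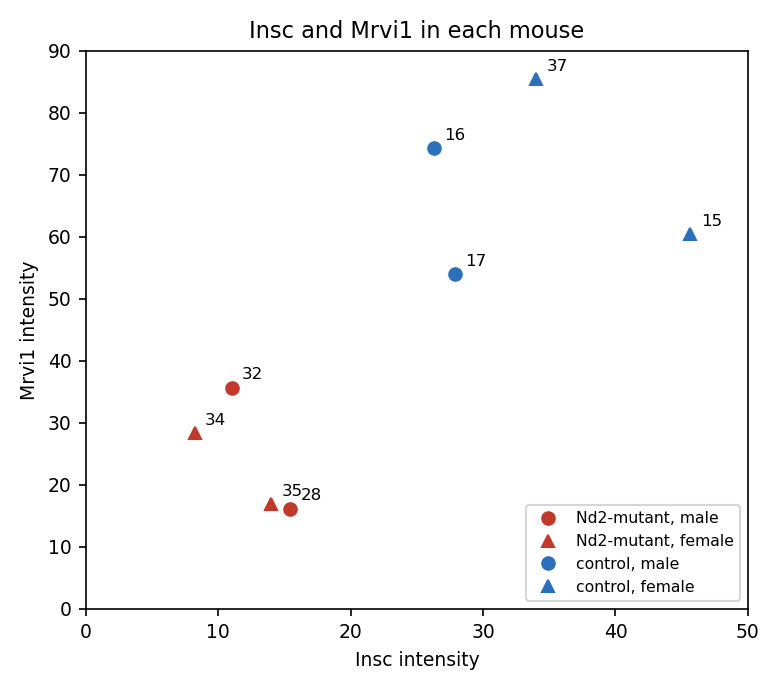
Intensity of the Mrvi1 probe (y axis, linear scale) against that of the Insc probe (x axis, linear scale), 1 point for each of the 8 mice with its number, with colour for strain and symbol for sex. The 4 Nd2-mutant mice lie at the lower left, and within a strain the mouse with the highest Insc value does not have the highest Mrvi1 value.

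The order of the mice within a strain was not the same for the 2 genes. Nd2-mutant mouse 28 had the highest Insc intensity of its strain (15.4) and the lowest Mrvi1 intensity (16.1). Control mouse 15 had the highest Insc intensity (45.7), whereas its Mrvi1 intensity (60.4) was below those of control mice 16 and 37. The mice fall into 2 separate groups by strain, with 4 mice in each, so no correlation over all mice is given. After each strain's mean was subtracted, the Pearson correlation of the log2 values of the 2 genes was -0.40. It is a description from few mice.

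Smooth muscle and pericyte markers are given beside these values because Mrvi1 is known as a smooth muscle gene. Of 11 such markers 10 had a probe and 8 were tested, and all 8 were lower in Nd2-mutant fibroblasts, with a median log2 difference of -0.59. Of these 8, 4 had an unadjusted p under 0.05, against 7.63% of all tested probes, and 0 had an adjusted p under 0.05. For each of the 8 markers alone the strains overlapped. Their summed intensity ranged from 13096 to 15705 in the Nd2-mutant mice and from 16175 to 18377 in the control mice, so the sums did not overlap. Most of the sum was Acta2, the vascular smooth muscle actin, at 11533 ± 1764 in Nd2-mutant and 12692 ± 959 in control mice (SD, n = 4). For example, Actg2, an actin of visceral smooth muscle, averaged 1219 ± 543 in Nd2-mutant and 2927 ± 1390 in control mice (SD, n = 4), and Myh11, the smooth muscle myosin heavy chain, had 43.3 ± 20.4 against 117 ± 76.4. The defining markers Cnn1 and Rgs5 were not detected on any array. The part of these markers in the Mrvi1 difference was not tested, and fewer cells of a type and less RNA per cell cannot be told apart in such samples.

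Markers of other cell types were also looked at. The summed endothelial markers ranged from 125 to 224 in the Nd2-mutant and from 199 to 484 in the control mice, with Kdr not detected and Emcn, a sialomucin of venous endothelium, lower without overlap (80.2 ± 31.5 against 206 ± 67.3, SD, n = 4, log2 difference -1.20), where 4.37% of all tested probes were without overlap. The other tested endothelial markers overlapped, with Pecam1 at -0.40, Cdh5 at -0.08 and Tek at 0.49. Skeletal muscle markers summed to 311 to 993 against 803 to 1281, with Myod1 and Ckm not detected. In that list 2 genes were tested, both lower, and most of the sum was Acta1 (543 ± 288 against 913 ± 208, SD, n = 4). The endothelial and skeletal muscle sums overlapped between the strains, but their lower ends lay in the Nd2-mutant mice. Macrophage markers (259 to 1478 against 214 to 555) and keratinocyte markers (198 to 1166 against 316 to 938) overlapped widely, and of the melanocyte and adipocyte markers 0 were tested. Their part in the Insc and Mrvi1 differences was not tested.

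The neighbouring genes had no common direction. With a tested probe there were 5 of them, Swap70, Adm, Eif4g2, Parva and Rras2, with 8 probes, of which 4 were lower and 4 higher in Nd2-mutant fibroblasts. The median log2 difference of the 8 probes was -0.01. Of these probes, 0 were without overlap between the strains, against 455 (4.37%) of all tested probes. In the fit without sex as a term, 0 had an unadjusted p under 0.05, against 7.63%. The smallest adjusted p of the 8 was 0.648 from limma. The lower ends of the 95% intervals ran from -0.71 for Rras2 to -0.09 for Adm, so that lower levels of some of these genes are within the error of 4 mice against 4.

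**Figure D2:**
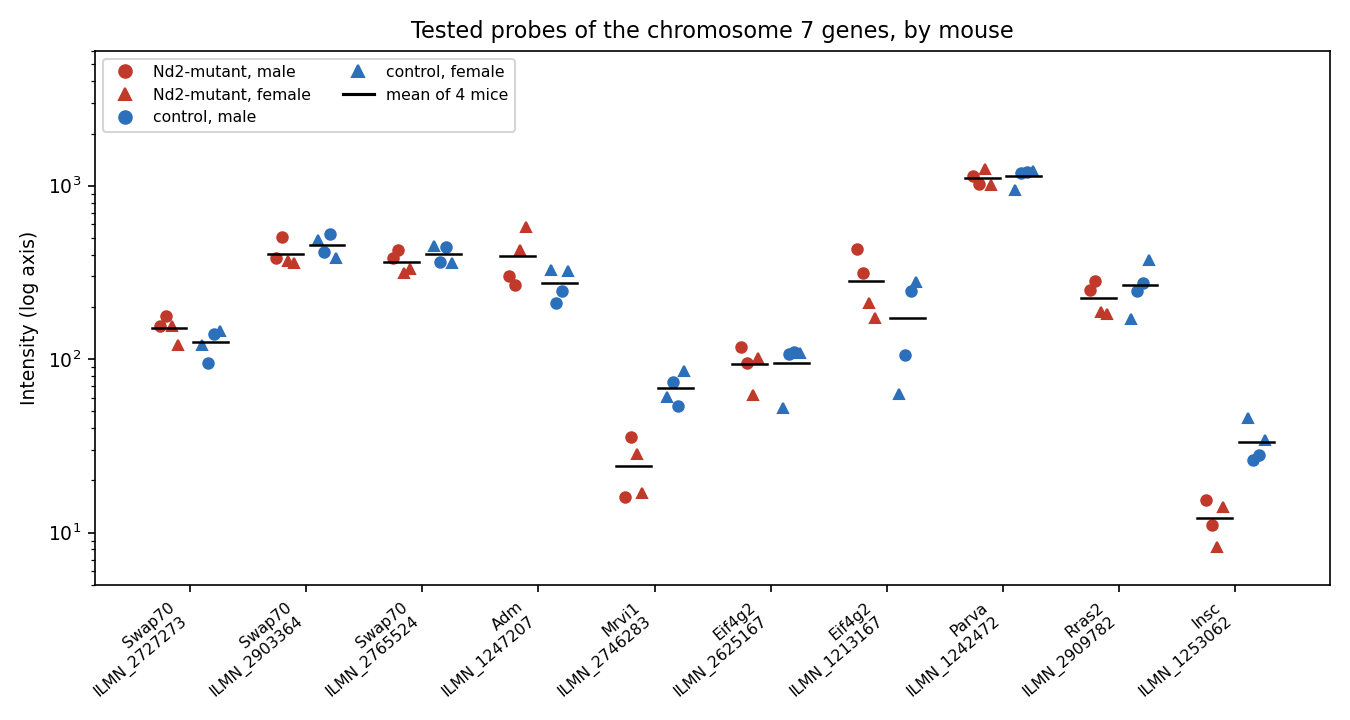
Intensity (y axis, log scale) of the 10 tested probes of the chromosome 7 genes in gene order (x axis), 1 point for each mouse, with colour for strain, symbol for sex and a line at the mean of 4 mice. The strains separate at the Mrvi1 and Insc probes and overlap at the other 8.

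Swap70, which encodes a phosphoinositide-binding protein that acts on Rac and on the actin cytoskeleton, lies at the far end of the stretch from Insc. Its probe ILMN_2903364 gave 383, 509, 367 and 359 in Nd2-mutant mice 28, 32, 34 and 35 and 484, 413, 528 and 385 in control mice 15, 16, 17 and 37, which is a log2 difference of -0.16 (standard error 0.16, 95% interval -0.52 to 0.20, adjusted p = 0.773 from limma). A further probe, ILMN_2765524, gave 384, 427, 314 and 333 against 448, 365, 441 and 359, a log2 difference of -0.14 (95% interval -0.48 to 0.19, adjusted p = 0.783 from limma). The values of the strains overlapped for both probes. ILMN_2727273 went the other way, with 155, 176, 156 and 120 against 120, 94.5, 140 and 146, a log2 difference of 0.26 (95% interval -0.12 to 0.63, adjusted p = 0.682 from limma). The fourth probe, ILMN_2752989, was not detected in any mouse. Over the 8 arrays the first 2 probes had a Pearson correlation of 0.92 with each other, and ILMN_2727273 had correlations of 0.13 and 0.09 with them. After each strain's mean was subtracted, these were 0.90 for the first pair and 0.44 and 0.40 for the others, and the probes differ in the direction of their strain difference. The correlations are across arrays that share strain and depth and are given as a description.

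Adm encodes adrenomedullin, a secreted vasodilator peptide that is induced by low oxygen. Its probe (ILMN_1247207) gave 302, 268, 428 and 577 in Nd2-mutant mice 28, 32, 34 and 35 and 326, 210, 246 and 322 in control mice 15, 16, 17 and 37. The highest values were those of the 2 Nd2-mutant females, while the Nd2-mutant males lay among the control mice. The means were 394 ± 140 (SD, n = 4) and 276 ± 57.3 (SD, n = 4), and the log2 difference was 0.45 (standard error 0.24, 95% interval -0.09 to 0.99, adjusted p = 0.648 from limma), opposite in direction to Insc and Mrvi1. That interval comes from the fit without sex. With sex as a term the difference was also 0.45, with a smaller standard error of 0.15 and an adjusted p of 0.602 from limma.

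Sex, which the choice of these genes did not use, separated the Adm values. All 4 males were below all 4 females, with means of 257 ± 38.7 (SD, n = 4) and 413 ± 120 (SD, n = 4), although the highest male (302) and the lowest female (322) were close. The difference of males minus females was -0.63 on the log2 scale with strain as a term (standard error 0.15, 95% interval -0.97 to -0.29), with an unadjusted p of 0.00228 and an adjusted p of 0.348 from limma. An exact 2-sided permutation test, which did not take strain into account, gave p = 0.0286, the smallest that 4 mice against 4 allow. Adm was the only one of the 10 tested probes without overlap between the sexes, where 278 of all tested probes (2.67%) were lower in males without overlap and 537 (5.16%) were without overlap in either direction. Of all tested probes 2 (0.0192%) had an adjusted p under 0.05 between the sexes, and Adm was not among them. Each strain held both sexes, so the detection filter left out any probe detected in only 1 sex.

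Eif4g2 encodes a relative of the translation initiation factor eIF4G that lacks the binding site for the cap-binding protein. Its probe ILMN_2625167 gave 118, 94.96, 62.5 and 102 in Nd2-mutant mice 28, 32, 34 and 35 and 52.02, 108, 110 and 109 in control mice 15, 16, 17 and 37, a log2 difference of 0.01 (standard error 0.24, 95% interval -0.52 to 0.54, adjusted p = 0.989 from limma). Control mouse 15 was far below the other control mice, and without it the log2 difference was -0.21. The other probe, ILMN_1213167, carries no chromosome in the annotation and gave 429, 315, 210 and 172 against 62.6, 105, 249 and 278. Its log2 difference of 0.77 (standard error 0.42, 95% interval -0.16 to 1.70, adjusted p = 0.648 from limma) was the largest of the neighbours, in the direction opposite to Insc. It was 0.41 without control mouse 15 and 0.28 with array weights, and it ranged up to 1.05, without control mouse 37. The values of both strains spread widely and overlapped.

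Parva encodes alpha-parvin, which ties integrin-linked kinase to actin at focal adhesions. Its probe (ILMN_1242472) gave 1133, 1020, 1246 and 1013 in Nd2-mutant mice 28, 32, 34 and 35 and 943, 1179, 1196 and 1224 in control mice 15, 16, 17 and 37. The strains were nearly alike in mean, at 1103 ± 110 (SD, n = 4) and 1135 ± 130 (SD, n = 4), with a log2 difference of -0.04 (standard error 0.14, 95% interval -0.36 to 0.28, adjusted p = 0.943 from limma). Without control mouse 15, the lowest of the 8, it was -0.12.

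Rras2, a small GTPase of the R-Ras family, is the tested neighbour nearest to Insc. Its probe (ILMN_2909782) gave 250, 282, 187 and 183 in Nd2-mutant mice 28, 32, 34 and 35 and 170, 246, 274 and 375 in control mice 15, 16, 17 and 37. The lowest value and the highest value both belonged to control mice. The means were 226 ± 48.8 (SD, n = 4) and 266 ± 84.4 (SD, n = 4), with a log2 difference of -0.20 (standard error 0.23, 95% interval -0.71 to 0.31, adjusted p = 0.806 from limma), of -0.38 without control mouse 15 and of -0.41 with arrays weighted by their quality.

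Wee1, Ampd3 and Tead1 could not be compared. Each has 1 probe, and none was detected in any of the 8 mice. The intensities of Wee1, the kinase that holds back mitosis by phosphorylating Cdk1, ranged from -1.40 to 6.78. Those of Ampd3, an AMP deaminase, ranged from -9.24 to 3.36, and those of Tead1, a transcription factor of the Hippo pathway, were below 0 in all 8 mice. For these 3 genes no strain difference is given.

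No member had a sex or interaction difference with an adjusted p under 0.05. The interaction had an adjusted p of 0.9999 from limma for each of the 10 tested probes, and 1 of all tested probes (0.0096%) had an adjusted p under 0.05. The largest interaction among the members was that of Eif4g2 probe ILMN_1213167, whose strain difference was 1.10 in males and 0.44 in females on the log2 scale, with a 95% interval of -1.23 to 2.55 for the difference between them.

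To avoid relying on the selected neighbours, all genes from Wee1 to Insc were then examined. Of the 31 protein-coding genes 29 had a probe and 17 a tested probe, with 22 tested probes in all. Of these probes 14 were lower and 8 higher in Nd2-mutant fibroblasts, and those without overlap between the strains were the probes of Insc and Mrvi1. Leaving both out, 12 of 20 probes were lower and 8 higher, with a median log2 difference of -0.05 and a middle range (25th to 75th percentile) of -0.15 to 0.08. Of these 20 probes 0 (0.0%) were without overlap and 1 (5.0%) had an unadjusted p under 0.05. On the rest of chromosome 7, 365 of 698 probes were lower and 333 higher, with a median of -0.02, 33 (4.73%) without overlap and 51 (7.31%) with an unadjusted p under 0.05. Over all 10414 tested probes, 5191 were lower and 5223 higher. The 20 probes of the stretch thus had a median near that of the rest of the chromosome. These counts are a description without a test, and a median does not show genes that shift in different directions.

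**Figure D3:**
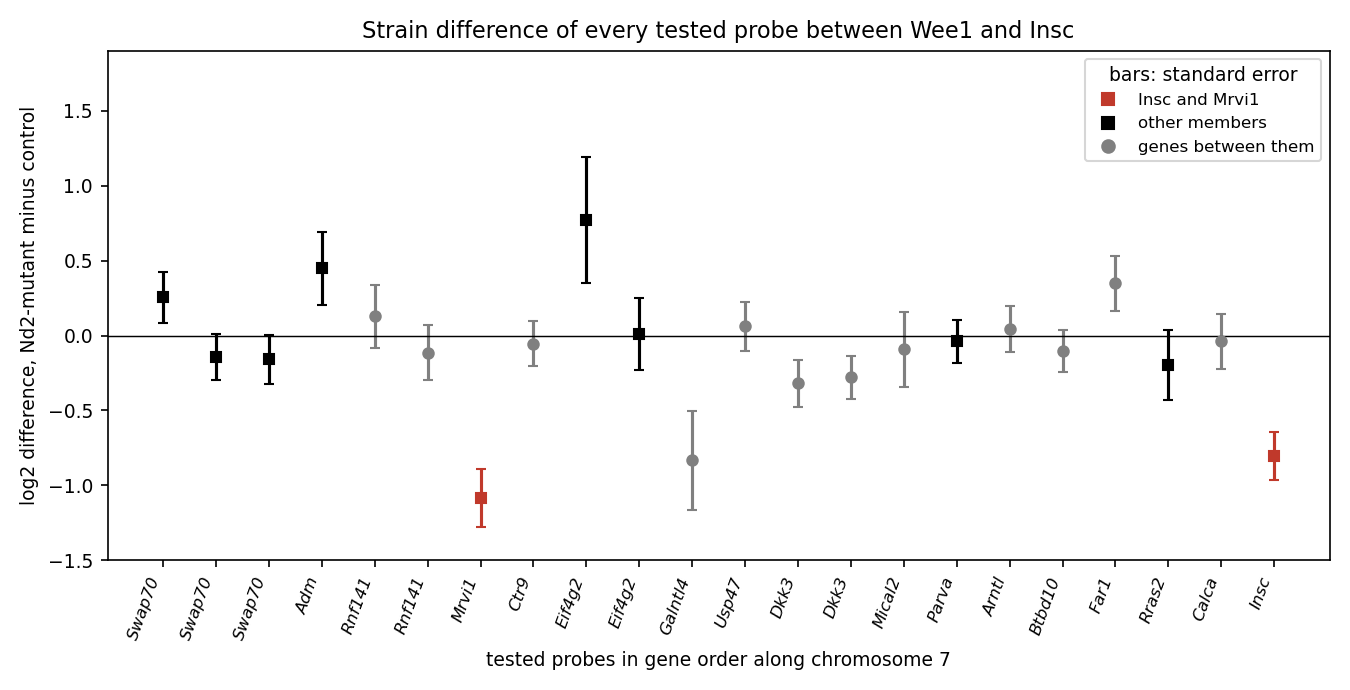
Log2 difference of Nd2-mutant minus control (y axis, log2 intensity) for the 22 tested probes from Swap70 to Insc in gene order (x axis), with the standard error as bars. Mrvi1 and Insc lie at -1.09 and -0.80, Galntl4 lies at -0.83 with a larger error, and the others lie between -0.32 and 0.77.

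Apart from Insc and Mrvi1, 1 gene of the stretch had an unadjusted p under 0.05 in the fit by limma used here. This gene, Galntl4, was picked out once its values were known. It is now called Galnt18, belongs to the enzymes that start mucin-type O-glycans, and is gene 11 of the stretch, between Mrvi1 and Insc. Its probe (ILMN_2736514) gave 62.6, 43.7, 58.2 and 57.0 in Nd2-mutant mice 28, 32, 34 and 35 and 68.8, 146, 60.04 and 229 in control mice 15, 16, 17 and 37. The control mice spread widely, and Nd2-mutant mouse 28 lay above control mouse 17, so the strains overlapped. The log2 difference was -0.83 (standard error 0.33, 95% interval -1.57 to -0.10, unadjusted p 0.0296, adjusted p = 0.639 from limma). Counted from the lowest log2 difference of 720 tested chromosome 7 probes, Mrvi1 was number 2 and Insc number 5, with Galntl4 between them. These ranks are a description, since all of these genes were picked for their values.

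Dkk3, gene 13 of the stretch and also between Mrvi1 and Insc, encodes a secreted protein of the Dickkopf family and was likewise picked out once its values were known. Its probe ILMN_2746556 gave 527, 730, 523 and 524 in Nd2-mutant mice 28, 32, 34 and 35 and 760, 795, 630 and 683 in control mice 15, 16, 17 and 37. ILMN_2852957 gave 618, 791, 702 and 615 against 838, 929, 724 and 826. For both probes Nd2-mutant mouse 32 was the 1 mouse of its strain among the control values. The log2 differences were -0.32 (95% interval -0.66 to 0.03) and -0.28 (95% interval -0.60 to 0.04), each with an adjusted p of 0.639 from limma. The remaining probe, ILMN_1224173, was not detected in any mouse. The authors' own analysis placed Dkk3 among the downregulated genes of Nd2-mutant fibroblasts, as it did Insc and Mrvi1.

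The tested genes on either side of Mrvi1 and Insc had log2 differences from -0.11 to 0.21, each with overlap between the strains. Ctr9, a subunit of the Paf1 complex of transcription, is the direct neighbour of Mrvi1 and had intensities of 72.0 ± 10.7 (SD, n = 4) and 75.4 ± 12.0 (SD, n = 4) in Nd2-mutant and control fibroblasts, with a log2 difference of -0.05 (standard error 0.15, adjusted p = 0.920 from limma). On its other side, with 1 gene between, Rnf141 had log2 differences of 0.13 and -0.11 with its 2 probes (adjusted p = 0.858 and 0.857 from limma). Calca, the calcitonin and CGRP gene, lies 1 gene from Insc towards Mrvi1 and was near the limit of detection, at 14.9 ± 4.69 and 16.1 ± 7.17 in Nd2-mutant and control mice (SD, n = 4), with a log2 difference of -0.04 (standard error 0.18, adjusted p = 0.956 from limma). Beyond Insc, with 3 genes between, the ribosomal protein gene Rps13 differed by 0.21 (standard error 0.19, adjusted p = 0.741 from limma). Between Mrvi1 and Insc, 12 of the 22 genes had a tested probe, and of the 14 probes 9 were lower and 5 higher, with a median of -0.05 and 0 without overlap.

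**Figure D4:**
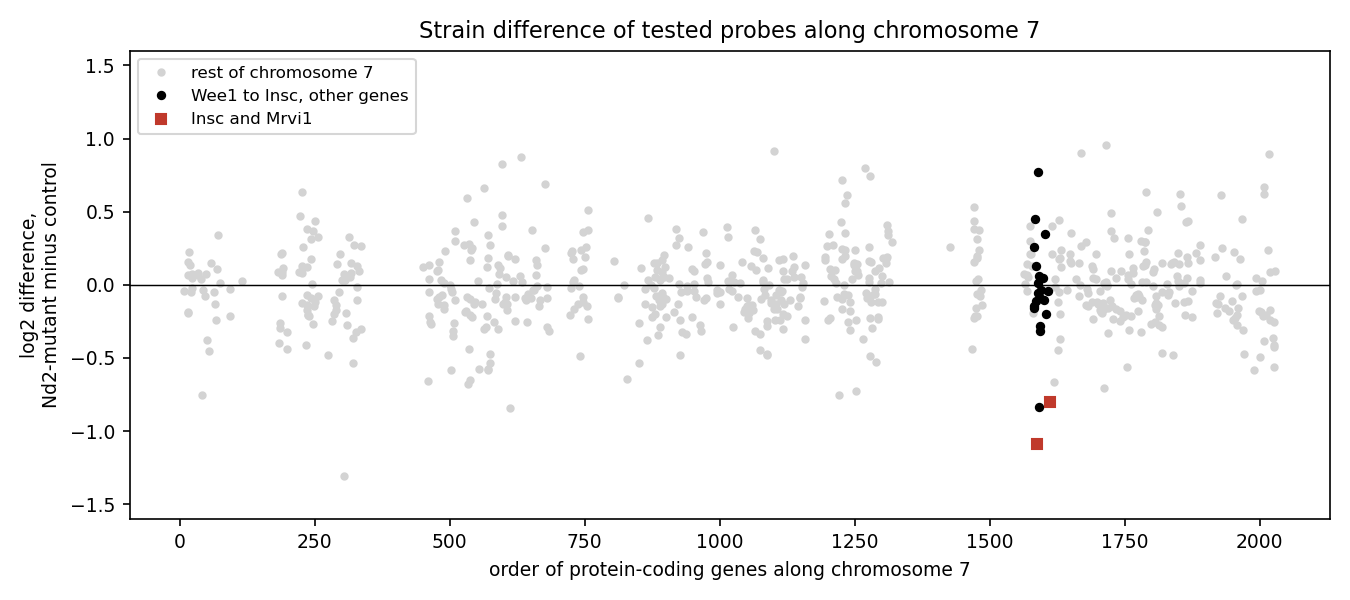
Log2 difference of Nd2-mutant minus control (y axis, log2 intensity) of tested chromosome 7 probes against the order of their protein-coding genes along the chromosome (x axis), with the genes from Wee1 to Insc in black and Insc and Mrvi1 in red. Most black points lie near 0, as do most grey points of the rest of the chromosome, and they range from -0.83 (Galntl4) to 0.77 (an Eif4g2 probe). The red points lie at -1.09 and -0.80.

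Partners and relatives of the 10 genes were listed by their known roles, in 10 lists with 80 genes, of which 76 had a probe and 52 a tested probe. Of the 52 genes 32 were lower and 20 higher, with a median log2 difference of -0.08, and 0 had an adjusted p under 0.05. There were 4 genes (7.69%) without overlap between the strains, against 4.37% of all tested probes, and 6 with an unadjusted p under 0.05, against 7.63%.

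Among the spindle orientation and polarity partners of Insc, 5 of 7 tested genes were lower and 2 higher, with a median of -0.08. The gene without overlap was Gnai2, a G protein alpha subunit, which was higher at 1621 ± 156 (SD, n = 4) against 1424 ± 27.0 (SD, n = 4), a log2 difference of 0.18. Gpsm2, which binds Inscuteable directly, differed by 0.25 with overlap. All 5 tested partners of Mrvi1 were lower, with a median of -0.41 and 0 without overlap. The largest differences were those of the inositol trisphosphate receptors Itpr2 (-0.51) and Itpr1 (-0.49), and Itpr1 had 341 ± 13.8 (SD, n = 4) against 494 ± 109 (SD, n = 4) with an unadjusted p of 0.0155. The kinase Prkg1 was near the limit of detection and differed by -0.24.

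The lists of the other members gave no common direction. Of the TEAD family, co-activators and targets, 5 of 8 tested genes were lower and 3 higher. The lower genes were targets, all with overlap, namely Ankrd1 (-0.88), Ctgf (-0.43), Cyr61 (-0.30), Axl (-0.10) and Amotl2 (-0.02). The higher genes were Tead2 (0.05) and the co-activators Yap1 (0.08) and Wwtr1. Of these, Wwtr1 was without overlap (39.4 ± 2.77 against 26.1 ± 6.73, SD, n = 4, log2 difference 0.41, adjusted p = 0.639 from limma). Of the integrin-linked kinase complex around Parva, 2 of 5 were lower and 3 higher, with Lims2, a PINCH adaptor, lower without overlap (113 ± 28.1 against 194 ± 57.0, SD, n = 4, log2 difference -0.70, adjusted p = 0.639 from limma). In AMP metabolism around Ampd3, 3 of 8 were lower and 5 higher, with the salvage enzyme Aprt lower without overlap (2959 ± 84.7 against 3418 ± 277, SD, n = 4, log2 difference -0.20). Both tested adrenomedullin receptor components were lower, namely Ramp1 (-0.71) and Ramp2 (-0.25), while the receptor Calcrl was not detected. Ramp1 was detected on 6 of 8 arrays and passed the filter through the control mice, where it is higher, so its direction is in part set by the filter. Around Wee1 5 of 7 mitotic genes were lower and 2 higher, with a median of -0.08, and around Eif4g2 3 of 4 were lower and 1 higher. In the R-Ras family 2 were lower and 2 higher, and both tested Swap70 relatives, Def6 and Rac1, were higher (0.19 and 0.27).

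The probes most like Insc and Mrvi1 over the 8 arrays were not on chromosome 7, where only 720 of the 10414 tested probes were placed. For Insc they were those of Pik3cd on chromosome 4 (Pearson correlation of log2 values 0.97, and 0.84 after each strain's mean was subtracted), Igfbp5 on chromosome 1 (0.97 and 0.88) and Mcam on chromosome 9 (0.94 and 0.89). Their log2 differences between the strains were -0.43, -0.90 and -1.03. For Mrvi1 they were Rtn4ip1 on chromosome 10 (0.98 and 0.98), Lims2 on chromosome 18 (0.97 and 0.97) with a further probe than the one above, and Tarbp2 on chromosome 15 (0.96 and 0.75). All 6 were lower in Nd2-mutant fibroblasts, which is part of the likeness because Insc and Mrvi1 were lower too. The arrays share normalization and the highest of 10414 correlations were taken, so these values are a description.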

How the data were processed

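RNA of cultured skin fibroblasts from 4 Nd2-mutant and 4 control mice was measured on MouseRef-8 v2.0 arrays, 1 per mouse. The strain, sex and number of each mouse came from the sample labels. The authors extracted the deposited intensity values in GenomeStudio (version not given in the sources used here), quantile normalized them and subtracted the background, and the same software gave the deposited detection p-values. The genome build of the probe annotation is not given in the sources used here. The table labelled as non-normalized is identical to the normalized one, so background correction could not be varied.

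Negative intensities were replaced by 0, and log2 values were taken after adding 16. Of all values 26.2% were 0 or lower. Probes detected (p under 0.01) on all 4 arrays of at least 1 strain entered a fit with limma 3.58.1 (lmFit, eBayes, 2-sided) in R 4.3.3, with Benjamini-Hochberg adjustment over 10414 probes and a threshold of 0.05. Sex was tested in a model that held strain too, and their interaction in a further model. Nothing in the sources used here states separate cultures beyond 1 per mouse, and the number of arrays limits the precision. The steps were tested on simulated data.

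Gene order and promoters came from RefSeq GRCm38.p6, to which 17230 of 18138 symbols were matched, 2926 of them by a synonym. Of the 14 member probes 13 have chromosome 7 in the deposited annotation and 1 has none. Probe sequences were not in the sources used here, so the probes could not be checked for sequence variants between the strains. Of 720 tested probes placed on chromosome 7, 624 have the same chromosome in the deposited annotation and 96 have none.

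The members, lists and tests were chosen with earlier results of these data known. Named genes are the members, the genes of the stretch without overlap between strains, the tested genes next to Insc and Mrvi1, the 3 genes most correlated with each, and the listed partners without overlap; others named from a list are examples. Of the marker lists, 1 is not reported here. Alternatives were 1 or 50 added before log2, the linear scale, other detection filters, the methods' t-test, a trend in eBayes, array weights, sex as a term, centring, repeated quantile normalization, a stretch wider by 5 Mb on each side, 1 probe for each gene, and leaving out each mouse.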

Additional observations from a re-analysis of the deposited data

Results flagged for a closer look

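In 2 of 20 groups of 4 values (the 10 tested probes in each strain), the same mouse lay far from the other 3. Control mouse 15 had an Eif4g2 intensity (ILMN_2625167) of 52.02, where the other control mice had 108, 110 and 109. On the log2 scale the gap took up 0.966 of the whole range. Its Parva intensity (ILMN_1242472) was 943 against 1179, 1196 and 1224, with a gap of 0.859 of the range on the log2 scale. Both are above Dixon's 95% critical value for 4 samples, which chance passes in about 1 of 20 groups. The array of this mouse also had the lowest mean correlation with the others, 0.934. Its part in these values was not tested.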

How the results depend on the processing

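Insc and Mrvi1 were lower in Nd2-mutant fibroblasts under every alternative that kept their probe. This direction was set by the choice of the genes, whose strains did not overlap, so it is no support, and only the sizes are informative. Insc was left out when detection on all 8 arrays was required. The size depended on the value added before log2. It was -1.39 for Insc and -1.52 for Mrvi1 with 1 added, and -0.42 and -0.68 with 50 added. On the linear scale the difference was -21.3 and -44.3 intensity units. Without each mouse in turn it ranged from -0.87 to -0.69 for Insc and from -1.22 to -0.99 for Mrvi1. Over all probes, 3 had an adjusted p under 0.05 with no filter on detection and 1 with the methods' t-test, and of the 8 neighbours' probes 0 did in any alternative. The Eif4g2 probe ILMN_2625167 changed direction with array weights (-0.20), on the linear scale (-0.51 intensity units) and without Nd2-mutant mouse 28 or 35 or control mouse 15, with a range of -0.21 to 0.17 over the mice left out. With array weights 1 member, Adm, had an adjusted p under 0.05 between the sexes (log2 difference -0.69, adjusted p = 0.0198 from limma). Over its other alternatives and the mice left out, its smallest adjusted p was 0.150.

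In the stretch from Wee1 to Insc, the number of probes other than Insc and Mrvi1 without overlap between the strains was 0 and ranged from 0 to 3 of 20 with 1 mouse left out, where 5.79% to 11.7% of all tested probes were without overlap. It was 1 without Nd2-mutant mouse 28 (Galntl4), 3 without Nd2-mutant mouse 32 (both Dkk3 probes and Swap70, all lower; 8.53% of all tested probes), 1 without Nd2-mutant mouse 35 (Swap70 ILMN_2727273, higher), 1 without control mouse 15 (Btbd10, lower) and 3 without control mouse 17 (Arntl, higher, and Dkk3 and Galntl4, lower; 11.7%). With 5 Mb more on each side it was 1 of 70 probes, that of Fam160a2 (log2 difference -0.44). The median difference of the stretch with Insc and Mrvi1 moved from -0.07 to 0.02 in the wider stretch, and with 1 mouse left out it ran from -0.14 (control mouse 15) to -0.03 (control mouse 37), with -0.12 without Nd2-mutant mouse 32. For scale, the spread of the median between mice was 0.138 (SD), which is not the error of these differences. No paired analysis was possible because no mouse number occurs in both strains. Normexp background correction and a chip block were not run, since neither non-normalized values nor chip names were in the tables used here. Genes near the detection limit, Insc in Nd2-mutant mice above all, have no firm ratio at this signal over background.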
